A study of Homo sapiens with 8 samples.

Results

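Of 39 listed genes of ribosome biogenesis and the nucleolus, with the transcription factor gene MYC among them, 37 were measured among 18404 genes on 8 arrays of COLO829 cells. They were taken from a list of nucleolar and RNA polymerase I genes, each through the probe set that carries exactly 1 gene symbol and has the highest mean over the arrays. NOP56 and GNL3 had no such probe set and were not analysed here. COLO829 is an established human melanoma line with a mutated, constantly active BRAF kinase. All cells were infected with a pGIPZ hairpin vector and selected with puromycin for 2 days, so the controls carry a vector as well. The scrambled DMSO group received a scrambled hairpin and then the solvent DMSO for 24 h, and the scrambled PLX4032 group the same hairpin and 1 µM PLX4032 (vemurafenib, a BRAF inhibitor) for 24 h. The knockdown DMSO and knockdown PLX4032 groups received a hairpin against MITF, which encodes the master transcription factor of melanocytes, and the same 24 h treatments. Each group has 2 arrays, A and B, of infected cell populations. The labels do not say that A and B are separate cultures, so p-values reflect only how much these arrays vary, which may be technical variation. The labels name no other MITF hairpin.

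Ribosomes are assembled in the nucleolus, where RNA polymerase I transcribes the ribosomal RNA genes and small nucleolar ribonucleoproteins (snoRNPs) guide the chemical marking and folding of the transcript. Processing factors then cleave the precursor into parts that mature into the small and the large ribosomal subunit. MYC, with its partner MAX, is a known activator of many genes of this pathway, and RAF-MEK-ERK signalling, which mutant BRAF drives, is known to sustain MYC and RNA polymerase I transcription in growing cells.

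The checks of the groups read as follows. MITF was lower in knockdown than in scrambled cells in DMSO by 0.93 ± 0.0803 on the log2 scale (1.91-fold, limma adjusted p = 8.28e-06), with levels of 10.44 and 10.46 against 9.57 and 9.47. PLX4032 raised MITF by 0.39 in scrambled and by 0.56 in knockdown cells (limma adjusted p = 0.00319 and 0.000239). In knockdown PLX4032 cells it read 10.07 and 10.08, above knockdown DMSO cells and 0.38 below scrambled DMSO cells. The combined group is thus not the group with the lowest MITF. Under PLX4032 the ERK target gene DUSP6 fell 6.42-fold and the cyclin gene CCND1 3.95-fold in scrambled cells (adjusted p = 6.06e-09 and 5.94e-08). In knockdown cells they fell 5.85-fold and 3.48-fold. With the MITF hairpin DUSP6 stood higher, by 0.46 in DMSO and by 0.59 under PLX4032 (limma adjusted p = 0.00176 and 0.000292). Of 11 ERK output genes, 5 rose and 0 fell on knockdown in DMSO, where 14.4% of all genes rose. Under PLX4032 6 rose and 3 fell on knockdown, where 13.5% of all genes rose. Correlations between the arrays of a group ran from 0.99581 to 0.99698 over all probe sets, and the median SE of a change was 0.0939. The mean level of 6 melanocyte markers ran from 8.83 to 10.81 over the groups. That of 4 leukocyte markers ran from 4.06 to 4.3, of 5 keratinocyte markers from 4.69 to 4.78 and of 5 fibroblast markers from 6.08 to 6.2, beside a median gene level of 6.802. These means hide wide ranges, as single markers spanned 4.32 to 12.85 for melanocytes and 3.38 to 9.84 for fibroblasts. Leukocyte markers spanned 3.2 to 5.68 and keratinocyte markers 3.77 to 6.49. Values for 25 mitosis genes, markers of cell division, stand beside the counts of each contrast.

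Levels here are log2 intensities per probe set, in which a difference of 1 is a 2-fold difference. Changes are given ± SE, as estimated by limma from the 8 arrays together with n = 2 in each group. A gene is said to have risen or fallen where its p, adjusted by Benjamini-Hochberg over 18404 genes within the contrast, was under 0.05.

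The promoters of the members were read first, because MYC with MAX binds the E-box CACGTG, and MITF is known to bind E-boxes of the same core. RefSeq promoter windows on GRCh38.p14, 250 bases before to 50 bases after a gene's start, were found for 30 of the 37 members, of which 7 have 2 windows, 37 windows in all. MYC, NOP58, NOLC1, RRP12, BOP1, RRS1 and RRP1B had no entry in the table. CACGTG, which reads the same on both strands, stood in 13 of the 37 windows (35.1%) and in 7.26% of all 35116 windows. The 13 windows belong to 13 genes. LYAR, DDX21 and GAR1 have 2 windows each, of which 1 holds CACGTG, and the position given is from the start of that window. The sites are shown within 30 bases each, 5′ to 3′ on the gene's strand, with the E-box in capitals, because they are a sequence that these genes share and that the list did not use.
LYAR, chr4:4290068-4290097, minus strand, before the start: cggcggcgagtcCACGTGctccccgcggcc
NOC3L, chr10:94362903-94362932, minus strand, after the start: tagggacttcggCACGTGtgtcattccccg
DDX21, chr10:68956604-68956633, plus strand, before the start: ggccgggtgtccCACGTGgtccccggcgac
NOP2, chr12:6568242-6568271, minus strand, after the start: gctaggtccggattgCACGTGgagggccgc
FBL, chr19:39846356-39846385, minus strand, after the start: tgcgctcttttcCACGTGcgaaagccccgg
UTP20, chr12:101280083-101280112, plus strand, before the start: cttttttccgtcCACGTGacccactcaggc
MYBBP1A, chr17:4555340-4555369, minus strand, after the start: ggggccggagcaCACGTGtttcgtgtttcg
RRP9, chr3:51941892-51941921, minus strand, across the start: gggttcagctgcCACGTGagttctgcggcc
WDR43, chr2:28894658-28894687, plus strand, after the start: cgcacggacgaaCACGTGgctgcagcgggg
BYSL, chr6:41921515-41921544, plus strand, after the start: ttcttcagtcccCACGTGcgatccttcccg
GAR1, chr4:109815781-109815810, plus strand, after the start: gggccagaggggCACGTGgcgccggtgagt
PES1, chr22:30591880-30591909, minus strand, after the start: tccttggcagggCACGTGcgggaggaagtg
NOP14, chr4:2963374-2963403, minus strand, after the start: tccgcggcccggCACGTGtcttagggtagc

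Most of these E-boxes lie just downstream of the annotated start. In the 250 bases before the start, 3 of 37 member windows (8.11%) held CACGTG, against 6.34% of all windows. In the 50 bases after it, a split chosen once the upstream share had been seen and into which a site across the start was counted, 10 of 37 did (27.0%), against 1.05% of all windows. Among the other factors of the small subunit the share in those 50 bases was 28.9% (11 of 38 windows), and among cytosolic ribosomal proteins 1.69% (1 of 59). It was 12.5% among other large subunit factors, 4.76% among other snoRNP and exosome factors and 0.0% among other RNA polymerase I factors. Over the whole window it was 42.1% for other small subunit, 26.1% for RNA polymerase III and 22.9% for other large subunit genes. For mitosis, housekeeping and ribosomal protein genes it was 17.4%, 13.6% and 5.08%. Upstream of the start these had 17.4%, 13.6% and 3.39%. Among other small subunit, RNA polymerase III and other large subunit genes the upstream share was 18.4%, 21.7% and 12.5%, above that of the members. The median GC content was 64.0% in the member windows and 58.7% in all windows, and its part in the shares was not tested. A wider search on either strand, which took the variants CATGTG (read as CACATG on the other strand) and CACGCG besides the canonical form, found 1 of these 4 spellings or more in 67.6% of the member windows and 27.2% of all windows. A match of letters is a description and not a bound site.

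The change under PLX4032 did not part the members with the E-box from those without. The median log2 change in scrambled cells was -0.70 for the 13 genes with CACGTG and -0.70 for the 17 genes with a window but no CACGTG. All 13 of the former and 14 of the latter fell. Several of those 17 genes hold a variant form. The 120 bases ending at the start are shown for 2 genes. POLR1B fell most among the members whose windows hold no CACGTG. It has a variant form in the 50 bases after its start, outside the stretch printed. UTP20 carries the canonical E-box 10 bases from the start, in capitals. LYAR (-1.71) and DDX21 (-1.08) also hold it before the start, each in 1 of 2 windows, and fell more than UTP20 (-0.71). The 2 stretches are thus examples and not a comparison.
POLR1B, chr2:112541916-112542035, plus strand: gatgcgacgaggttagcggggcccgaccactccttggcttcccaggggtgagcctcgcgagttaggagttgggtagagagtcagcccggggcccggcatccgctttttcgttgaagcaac
UTP20, chr12:101279985-101280104, plus strand: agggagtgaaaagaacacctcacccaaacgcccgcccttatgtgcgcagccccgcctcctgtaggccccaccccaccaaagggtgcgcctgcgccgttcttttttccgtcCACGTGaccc

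MYC fell in every contrast, and fell most where the inhibitor and the knockdown were combined. It read 11.45 and 11.5 in scrambled DMSO cells, 10.8 and 10.56 in scrambled PLX4032 cells, 11.13 and 11.04 in knockdown DMSO cells, and 9.39 and 9.26 in knockdown PLX4032 cells. No 2 groups overlap, and the knockdown PLX4032 arrays stand more than 1 log2 unit below all others. The knockdown lowered MYC by 0.39 ± 0.0979 in DMSO (1.31-fold, limma adjusted p = 0.0104) and by 1.35 ± 0.0979 under PLX4032 (adjusted p = 1.65e-06). Under PLX4032 it fell by 0.79 ± 0.0979 with the scrambled hairpin (adjusted p = 8.93e-05) and by 1.76 ± 0.0979 with the MITF hairpin (adjusted p = 1.75e-07). The PLX4032 change in knockdown cells minus that in scrambled cells, the interaction, was -0.96 ± 0.138 (adjusted p = 0.00103). The fall under the inhibitor was thus larger with the MITF hairpin. Against scrambled DMSO cells, MYC fell by 2.15 ± 0.0979 (adjusted p = 2.54e-08). The call for knockdown in DMSO ended without scrambled DMSO replicate B (-0.37, adjusted p = 0.0542) or without knockdown DMSO replicate B (-0.35, adjusted p = 0.0846). It also ended when each array was centred on the median change of 22 housekeeping genes (-0.23, adjusted p = 0.0549), a scaling added after the data were seen.

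**Figure D1:**
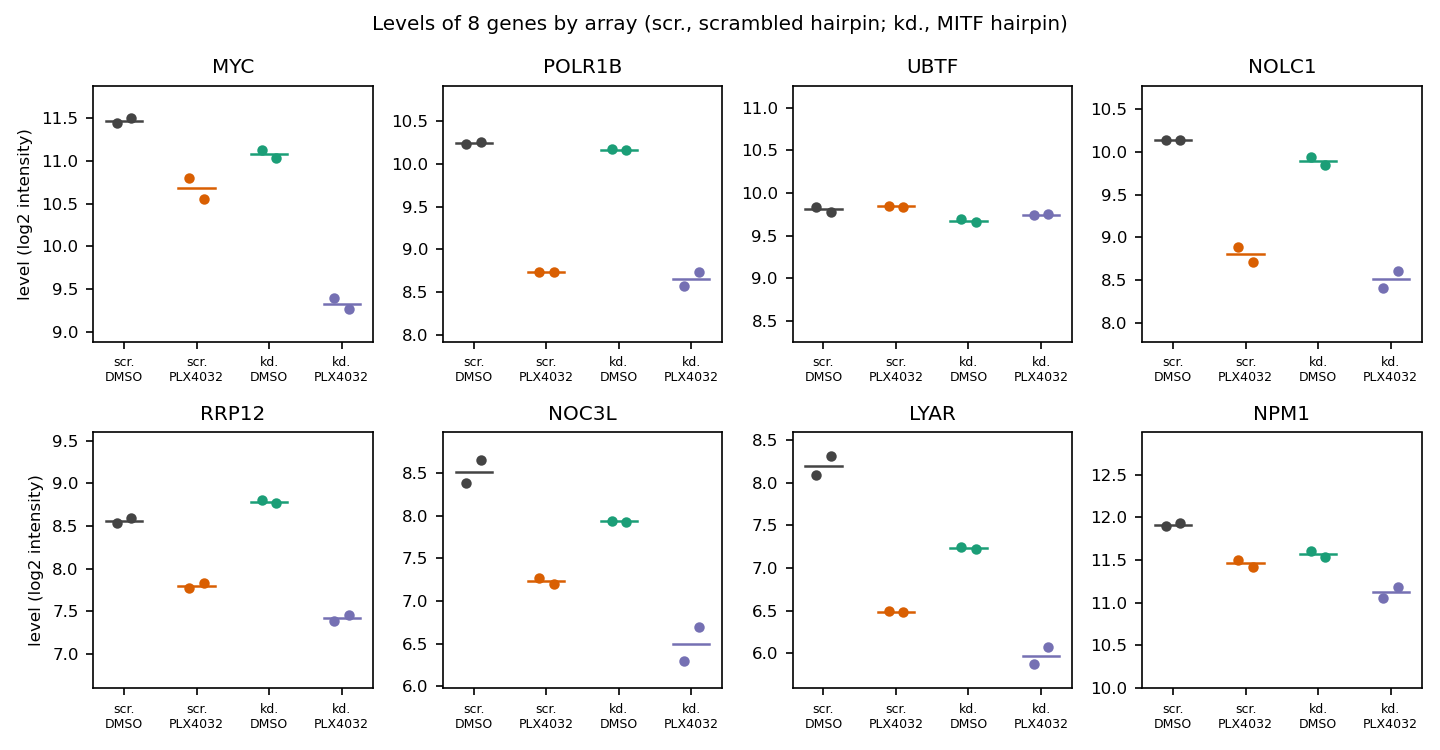
Levels (log2 intensity, vertical axis, each panel spanning the same height) of 8 genes in the 4 groups (horizontal axis); each point is an array (A left, B right) and each line a group mean. MYC and RRP12 are lowest in knockdown PLX4032 cells, POLR1B and NOLC1 are low in both PLX4032 groups, and UBTF stays between 9.66 and 9.85 on all arrays.

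PLX4032 in scrambled cells lowered nearly the whole set. Of the 37 members 34 fell and 0 rose, where 16.8% of all genes fell and 17.3% rose, and the 3 that were not called were POLR1A, RRN3 and UBTF. By unadjusted p, 35 members were under 0.05, a count not made over all genes. The median log2 change was -0.71 over the members and 0.05 over all genes. For 35 members the arrays of the PLX4032 group were all lower than those of the DMSO group, as they were for 27.8% of all genes. Beside this, 25 of 25 mitosis genes fell, with a median of -1.14, and their part in the result was not tested. Of 22 housekeeping genes 6 fell and 1 rose, with a median of -0.12, and 3 fell without scrambled PLX4032 replicate B. Centred on the median housekeeping change, 33 members fell with a median of -0.58, and 5755 genes rose and 2242 fell in all. Centred on the median housekeeping level, the split was 2094 risen and 3720 fallen.

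The RNA polymerase I genes did not move together. POLR1B, which encodes the second-largest subunit, read 10.24 and 10.26 in scrambled DMSO cells, 8.73 and 8.73 in scrambled PLX4032 cells, 10.18 and 10.16 in knockdown DMSO cells, and 8.57 and 8.73 in knockdown PLX4032 cells. The DMSO and PLX4032 arrays are thus more than 1 log2 unit apart whatever the hairpin. Its fall was 1.52 ± 0.0827 in scrambled cells (2.88-fold, limma adjusted p = 2.57e-07), and the knockdown change in DMSO was -0.09 ± 0.0827 (adjusted p = 0.458). POLR1C encodes a subunit shared with RNA polymerase III. It read 8.61 and 8.81 in scrambled DMSO cells, 8.03 and 7.93 in scrambled PLX4032 cells, 8.54 and 8.58 in knockdown DMSO cells, and 7.44 and 7.5 in knockdown PLX4032 cells. Both PLX4032 groups lie below both DMSO groups, and POLR1C fell by 0.73 ± 0.0901 in scrambled cells (adjusted p = 8.97e-05). POLR1A, the largest subunit, read 9.53 and 9.62 in scrambled DMSO cells, 9.36 and 9.39 in scrambled PLX4032 cells, 9.56 and 9.42 in knockdown DMSO cells, and 9.19 and 9.07 in knockdown PLX4032 cells. Its change of -0.20 under PLX4032 in scrambled cells was not called (adjusted p = 0.0974). The initiation factor gene RRN3 changed by -0.04 (adjusted p = 0.756). UBTF, whose product binds the ribosomal RNA genes and keeps them open, changed by 0.04 (adjusted p = 0.754) and was the only member called in none of the 5 pairwise contrasts among the hairpin and treatment groups described here.

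The snoRNP genes fell as a whole, 7 of 7, with a median of -0.65. NOLC1, a chaperone of snoRNP assembly, read 10.14 and 10.14 in scrambled DMSO cells, 8.89 and 8.71 in scrambled PLX4032 cells, 9.94 and 9.85 in knockdown DMSO cells, and 8.41 and 8.61 in knockdown PLX4032 cells. The drug parts these arrays far more than the hairpin does, with a fall of 1.34 ± 0.0966 (2.53-fold, limma adjusted p = 1.77e-06). DKC1 encodes the pseudouridine synthase of the H/ACA snoRNPs. It read 9.21 and 9.31, 8.13 and 8.09, 8.79 and 8.65, and 7.16 and 7.5 in the same order of groups, so that it stepped down with each perturbation. Its fall under PLX4032 in scrambled cells was 1.15 ± 0.112 (adjusted p = 1.63e-05). FBL, the methyltransferase of the C/D snoRNPs, read 11.13 and 11.1, 10.35 and 10.35, 10.66 and 10.54, and 10.02 and 10.08, and fell by 0.77 ± 0.0818 (adjusted p = 3.15e-05). No groups overlap for these 3 genes. The other C/D core gene NOP58 (-0.65), the H/ACA core genes NHP2 (-0.64) and GAR1 (-0.50), and RRP9, a protein of the U3 snoRNP (-0.62), fell too. The size for NHP2 depended on the probe set, since the dimmer one gave -0.29.

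All 9 small subunit processing genes fell, with a median of -0.71 and a narrow range, from -0.86 to -0.45. DDX10, an RNA helicase gene, read 7.7 and 7.81 in scrambled DMSO cells, 6.9 and 6.9 in scrambled PLX4032 cells, 7.19 and 7.14 in knockdown DMSO cells, and 6.51 and 6.8 in knockdown PLX4032 cells. Each treated or knockdown group lies below scrambled DMSO, and its fall under PLX4032 was 0.86 ± 0.101 (limma adjusted p = 6.65e-05). RRP12, which takes part in the export of the precursor subunits, read 8.53 and 8.59, 7.77 and 7.83, 8.8 and 8.77, and 7.39 and 7.45 in the same order. Its arrays stand higher after knockdown in DMSO and yet lowest after both perturbations, and it fell by 0.76 ± 0.0792 under PLX4032 in scrambled cells (adjusted p = 2.65e-05). HEATR1, a scaffold of the early processing complex, read 10.17 and 10.26, 9.46 and 9.52, 9.97 and 9.89, and 9.22 and 9.29. Its 4 groups do not overlap, and it fell by 0.72 ± 0.0824 (adjusted p = 5.05e-05). NOB1, the endonuclease that finishes the small subunit RNA, also fell by 0.72, followed by UTP20 (-0.71), UTP15 (-0.70), WDR43 (-0.61), BYSL (-0.55) and NOP14 (-0.45).

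All 10 large subunit processing genes fell, with a median of -0.69. NOC3L, of the nucleolar complex that carries early precursors, read 8.38 and 8.65 in scrambled DMSO cells, 7.27 and 7.2 in scrambled PLX4032 cells, 7.94 and 7.93 in knockdown DMSO cells, and 6.3 and 6.69 in knockdown PLX4032 cells. The groups are ordered without overlap, and the PLX4032 fall was 1.28 ± 0.127 (limma adjusted p = 1.87e-05). RRP1B read 9.44 and 9.57, 8.68 and 8.61, 8.97 and 8.86, and 8.03 and 8.27 in the same order, and fell by 0.86 ± 0.0989 (adjusted p = 5.54e-05). BOP1, which with PES1 and WDR12 forms the PeBoW complex, read 9.94 and 9.94, 9.15 and 9.13, 9.69 and 9.62, and 8.64 and 8.53. It fell by 0.80 ± 0.0806 (adjusted p = 2e-05), and a second probe set gave -0.66. Its partners fell by less, WDR12 by 0.56 and PES1 by 0.49. The rRNA methyltransferase gene NOP2 (-0.79), NOP16 (-0.75), NIP7 (-0.62), NOC2L (-0.49) and RRS1 (-0.41), which helps load the small ribosomal RNA of the large subunit, completed the group. The RRS1 call (adjusted p = 0.0381) ended without scrambled DMSO replicate B or without either scrambled PLX4032 array, where the change ran from -0.47 to -0.28 over those fits, a repeated quantile normalization and the centring on the median housekeeping change.

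All 5 other nucleolar genes fell, with a median of -0.76. LYAR, a nucleolar zinc finger protein of growing cells, read 8.09 and 8.31 in scrambled DMSO cells, 6.5 and 6.48 in scrambled PLX4032 cells, 7.25 and 7.22 in knockdown DMSO cells, and 5.87 and 6.07 in knockdown PLX4032 cells. It fell by 1.71 ± 0.0994 (3.27-fold, limma adjusted p = 4.03e-07), the largest change of any member under PLX4032 in scrambled cells. DDX21, a helicase that couples RNA polymerase I with processing, read 9.87 and 10.01, 8.86 and 8.85, 9.76 and 9.7, and 8.75 and 8.94 in the same order of groups. It fell by 1.08 ± 0.092 under PLX4032 (adjusted p = 5.78e-06). Its knockdown arrays lay lower in DMSO by 0.21 without passing the test (adjusted p = 0.104), and under PLX4032 the arrays of the 2 hairpins overlap. Nucleolin, NCL, read 11.29 and 11.33, 10.56 and 10.54, 11.03 and 10.94, and 10.26 and 10.33, and fell by 0.76 ± 0.0797 (adjusted p = 2.81e-05). The corepressor gene MYBBP1A fell by 0.70 and the histone and ribosome chaperone gene NPM1 by 0.46. Of the other NPM1 probe sets, the brighter gave -0.56, and a dim one with a mean level of 3.98 gave 0.07.

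**Figure D2:**
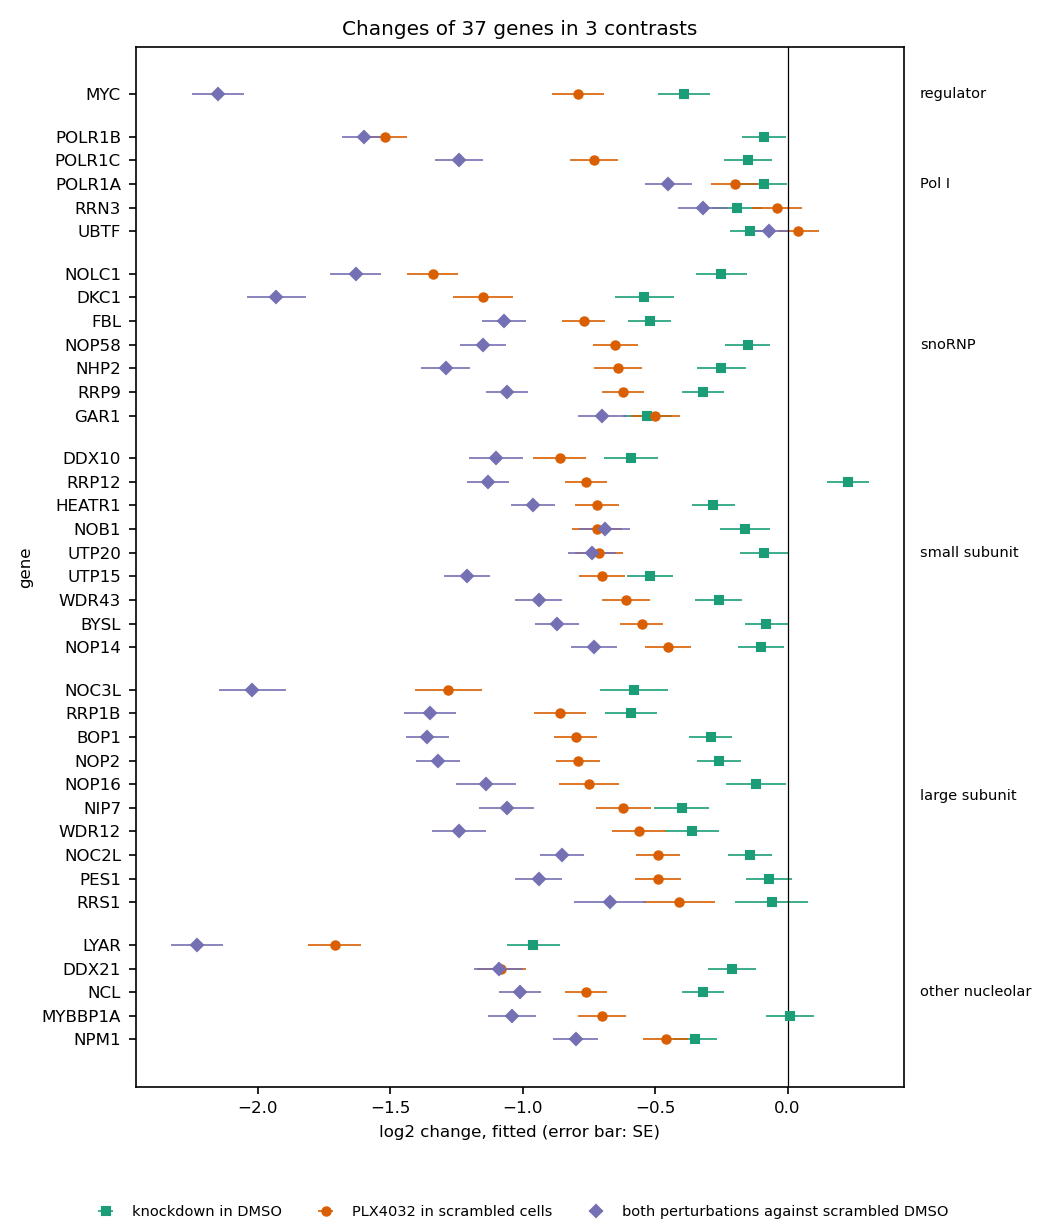
Fitted log2 change (horizontal axis, error bar SE) of the 37 measured genes, grouped by role and sorted by the PLX4032 change, for knockdown in DMSO (squares), PLX4032 in scrambled cells (circles) and both perturbations against scrambled DMSO (diamonds). In the snoRNP, subunit and other nucleolar groups all circles lie left of 0, whereas UBTF and RRN3 lie close to it.

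Knockdown of MITF without the drug lowered fewer members, and by less. Of 37 members 18 fell and 1 rose, where 18.8% of all genes fell and 14.4% rose, with a median log2 change of -0.25 over the members and 0.02 over all genes. The arrays of 29 members were all lower in knockdown cells, as for 33.2% of all genes, and 0 members fell 2-fold. The largest falls were those of LYAR (-0.96 ± 0.0994, limma adjusted p = 3.13e-05), RRP1B (-0.59 ± 0.0989, adjusted p = 0.00102) and DDX10 (-0.59 ± 0.101, adjusted p = 0.00113), with NOC3L (-0.58), DKC1 (-0.54), GAR1 (-0.53), FBL (-0.52) and UTP15 (-0.52) after them. By role, 4 of 7 snoRNP genes, 4 of 9 small subunit genes, 6 of 10 large subunit genes and 3 of 5 other nucleolar genes fell, and 0 of 5 RNA polymerase I genes did, with changes there from -0.19 to -0.09. The count of members called, 19 in all, was 8 without knockdown DMSO replicate B and 9 without scrambled DMSO replicate B. The mitosis list fell here as well, 25 of 25 with a median of -0.90, and its part in the result was not tested.

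Housekeeping genes moved down on knockdown in DMSO as well. Of 22 such genes 8 fell and 2 rose, with a median of -0.22, and 2 fell without knockdown DMSO replicate B. With arrays centred on the median housekeeping change, 8 members fell and 1 rose, with a median of -0.08, where 10.5% of all genes fell and 6395 rose against 1934 that fell. LYAR (-0.80), DDX10, RRP1B and NOC3L (-0.42 each), DKC1, GAR1, FBL and UTP15 were those called lower. Centring on the median housekeeping level moved the member median the other way, to -0.36, with 1414 genes risen and 4943 fallen in all, so the size of the knockdown change depends on the scaling.

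RRP12 was the member called upwards on knockdown in DMSO, by 0.23 ± 0.0792 (limma adjusted p = 0.0485). That call ended when any of the 8 arrays was left out and in 3 other settings, where the change ran from 0.12 to 0.26 and the adjusted p reached 0.347. MYBBP1A read 9.05 and 8.98 in knockdown and 8.97 and 9.04 in scrambled DMSO cells, and its change was 0.01 (adjusted p = 0.954).

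The difference between the 2 single perturbations was tested directly. PLX4032 in scrambled cells left 26 of 37 members lower than knockdown in DMSO did and 0 higher, where 14.2% of all genes were lower and 18.9% higher, with a median difference of -0.42 over the members. For 34 members the arrays lay apart and lower, as for 31.6% of all genes. POLR1B (-1.44 ± 0.0827, limma adjusted p = 1.45e-07), NOLC1 (-1.10 ± 0.0966, adjusted p = 4.84e-06) and RRP12 (-0.98 ± 0.0792, adjusted p = 2.29e-06) differed most. For 11 members the difference was not called, among them GAR1 (0.03 ± 0.0925), which stood at 7.25 and 7.33 after PLX4032 and at 7.31 and 7.22 after knockdown, NPM1 (-0.11) and UTP15 (-0.18). For MYC the difference of -0.40 ± 0.0979 was called (adjusted p = 0.00786), but not without scrambled PLX4032 replicate B (-0.28, adjusted p = 0.0813) or knockdown DMSO replicate A (-0.36, adjusted p = 0.0675). Of the mitosis list 8 of 25 were lower under PLX4032 than on knockdown and 0 higher, with a median of -0.25. In all, 18 members fell under both single perturbations, and 15 fell under PLX4032 and were not called on knockdown. Such combined calls were not counted over all genes.

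In knockdown cells the drug lowered the set again. Of 37 members 34 fell and 0 rose, where 15.1% of all genes fell and 18.6% rose, and the median change was -0.77. The PLX4032 arrays lay apart and lower for 36 members, as for 27.4% of all genes. For 33 members the fall was called in scrambled and in knockdown cells alike, a count not made over all genes. GAR1, which fell in scrambled cells, changed by -0.17 here (limma adjusted p = 0.192), and POLR1A, which was not called there, fell by 0.35 (adjusted p = 0.00864). That POLR1A call ended without knockdown DMSO replicate A or knockdown PLX4032 replicate B and with arrays centred on the housekeeping level. The RRS1 call in knockdown cells ended without knockdown DMSO replicate A (-0.51, adjusted p = 0.0548). The largest falls were those of MYC, POLR1B (-1.52), NOC3L (-1.43), NOLC1 and DKC1 (-1.39 each) and RRP12 (-1.36). Centred on the housekeeping level, 5096 genes rose and 2033 fell in all. Of the mitosis list 24 of 25 fell, with a median of -0.75.

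Under PLX4032 the knockdown lowered 26 of 37 members and raised 0, where 15.0% of all genes fell and 13.5% rose, with a median of -0.34. The knockdown arrays of 33 members lay apart and lower, as for 29.8% of all genes. MYC came first (-1.35), before DKC1 (-0.78 ± 0.112, limma adjusted p = 0.000332), NOC3L (-0.74 ± 0.127, adjusted p = 0.00118), WDR12 (-0.68) and NHP2 (-0.65). A further 10 members, not called on knockdown in DMSO, fell here, such as POLR1C (-0.51) and PES1 (-0.45), and GAR1, HEATR1 and DDX10, called on knockdown in DMSO, did not pass the test here. These differences in call do not show that the effects differ, since the interaction was called for none of those 13 in the fit reported. The count was 17 without scrambled PLX4032 replicate A. Over all genes, 3290 rose and 1964 fell with arrays centred on the housekeeping level, and 3056 and 2230 with the centring on their median change. Of the mitosis list 22 of 25 fell, with a median of -0.59.

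Both perturbations together gave the lowest levels. Of 37 members 36 fell and 0 rose against scrambled DMSO cells, where 21.5% of all genes fell and 27.1% rose, and UBTF was not called (-0.07, limma adjusted p = 0.512). The RRN3 call ended in 5 settings, among them the fit of these groups alone and 3 that left out 1 array, where its change ran from -0.33 to -0.14 and the adjusted p reached 0.231. Centred on the median housekeeping change, 35 members fell, and 9416 genes rose and 2869 fell in all. The median change was -1.07 over the members and 0.08 over all genes, and 23 members had fallen at least 2-fold, compared with 6 under PLX4032 in scrambled cells. The arrays of 37 of 37 members were all lower, as for 29.8% of all genes. LYAR (-2.23 ± 0.0994, adjusted p = 2.24e-08), MYC (-2.15), NOC3L (-2.02), DKC1 (-1.93), NOLC1 (-1.63) and POLR1B (-1.60) fell furthest. The group means of 31 members stood in 1 order, scrambled DMSO highest, then knockdown DMSO, scrambled PLX4032 and knockdown PLX4032. The knockdown PLX4032 mean was the lowest for 35 members, UBTF and NOB1 being the exceptions. The order of means, the lowest mean and the 2-fold falls were not counted over all genes. All 25 mitosis genes fell here too, with a median of -1.78. Their mean level was 9.68 and 9.78 in scrambled DMSO cells, 8.61 and 8.57 in scrambled PLX4032 cells, 8.78 and 8.8 in knockdown DMSO cells, and 7.94 and 8.15 in knockdown PLX4032 cells.

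The joint fall was set against the sum of the single ones. The interaction, tested in the same fit, was called for 2 of 37 members, MYC and RRP12, both below 0, where 4.85% of all genes were called below 0 and 6.97% above. By unadjusted p, 12 members were under 0.05, a count not made over all genes. RRP12 had an interaction of -0.60 ± 0.112 (limma adjusted p = 0.00512): its PLX4032 fall was 0.76 in scrambled and 1.36 in knockdown cells. For 19 members the interaction lay within 0.2 of 0, with an SE of 0.133 for the median gene. POLR1B had 0.01 ± 0.117 and NPM1 0.01 ± 0.119. LYAR, with single changes of -0.96 and -1.71 and a joint change of -2.23, had the highest value, 0.44 ± 0.141, which was not called (adjusted p = 0.071). The median of -0.12 over the members became 0.078 when the arrays were centred on the level of housekeeping genes, where 5 members were called above 0 and 2 below, and 3442 genes above and 491 below in all. Centred on their median change, it became -0.23, with 7 members called below 0 and 0 above and 823 genes above and 1385 below in all. Beside MYC and RRP12, these were MYBBP1A, NOP58, NHP2 (-0.51), PES1 (-0.49) and POLR1C (-0.47). The median became 0.004 without knockdown PLX4032 replicate A, with 4 members called. The mitosis list went the other way, with 9 of 25 called above 0 and a median of 0.43.

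**Figure D3:**
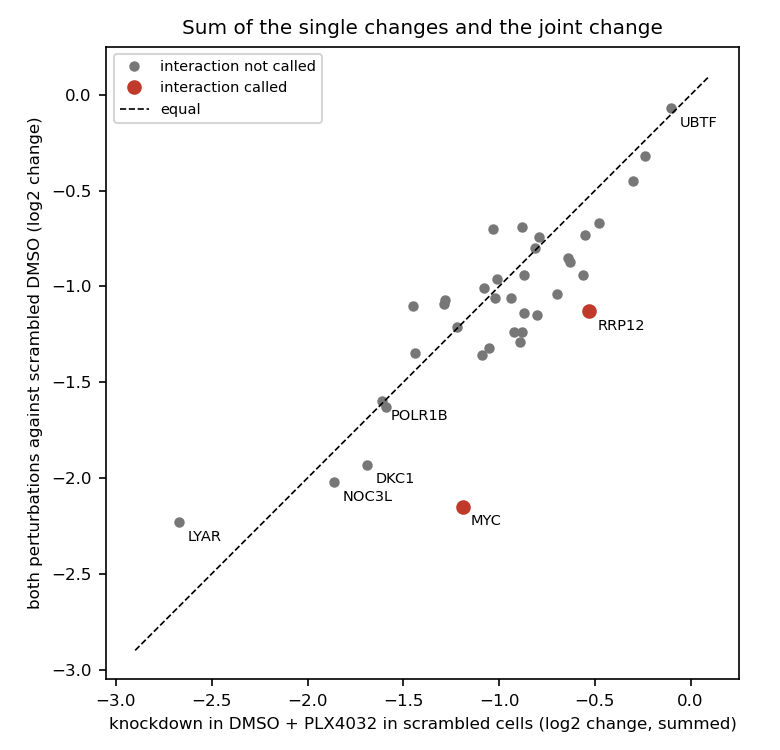
Joint log2 change of both perturbations against scrambled DMSO (vertical axis) against the sum of the single changes (horizontal axis) for 37 genes; the dashed line marks equality, and both axes share the scrambled DMSO arrays. MYC (-2.15 against a sum of -1.19) and RRP12 lie furthest below the line, and POLR1B lies on it.

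The wider pathway was counted in lists of textbook members chosen with earlier results of these data known. The counts stand beside the 16.8% of all genes that fell under PLX4032 and the 18.8% that fell on knockdown in DMSO. Under PLX4032 in scrambled cells 8 of 10 other RNA polymerase I genes and initiation factors fell and 0 rose, with a median of -0.46. POLR1G (-1.19 ± 0.0843, limma adjusted p = 1.55e-06), TAF1A (-0.67) and POLR1F (-0.57) fell most, while POLR1D, whose product is shared with RNA polymerase III, stood highest at 0.16. On knockdown in DMSO 6 of the 10 fell, TAF1A (-0.55), the termination factor gene TTF1 (-0.53) and POLR1H (-0.46) by most. Of the other small subunit factors 35 of 43 fell under PLX4032 and 0 rose, with a median of -0.49, led by LTV1 (-0.96), EMG1 (-0.95) and TSR1 (-0.95). On knockdown 15 fell, WDR3 (-0.56) and RCL1 (-0.48) by most, and NOL6 rose (0.66 ± 0.0933, adjusted p = 0.000309). NOL6, which takes part in early processing, and RRP12 were the subunit factor genes called upwards on knockdown, and NOL6 too had an interaction below 0, of -0.83. Of the other large subunit factors 36 of 46 fell under PLX4032 and 0 rose, with a median of -0.43. BRIX1 (-1.44 ± 0.0814, adjusted p = 3.35e-07), TMA16 (-1.16) and URB2 (-1.05) led these. On knockdown 23 fell, BRIX1 (-0.83), EFL1 (-0.62) and REXO4 (-0.61) by most.

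Other snoRNP factors and the RNA exosome, which trims the precursors, followed with 16 of 23 falling and 1 rising under PLX4032, at a median of -0.39. The exosome gene EXOSC8 (-1.19), the Pol I cofactor gene TCOF1 (-0.91) and EXOSC9 (-0.90) fell most. On knockdown 11 fell, among them EXOSC8 (-0.79), COIL (-0.58) and EXOSC9 (-0.57). Of 20 RNA polymerase III genes 9 fell and 1 rose under PLX4032, with a median of -0.21. That is 3 of 20, near the share of all genes, without scrambled DMSO replicate B. POLR3G fell by 1.43 ± 0.115 (2.69-fold, limma adjusted p = 3.88e-06), POLR3E by 0.79 and POLR3K by 0.66, and the POLR3G paralogue POLR3GL stood highest at 0.28. On knockdown 7 of the 20 fell, POLR3B (-0.66), POLR3G (-0.59) and POLR3K (-0.47) by most. Leaving out 1 array lowered several of these counts. Without knockdown DMSO replicate B, 5 small subunit and 9 large subunit factors fell on knockdown. Without scrambled DMSO replicate B, 4 snoRNP and exosome genes and 3 RNA polymerase III genes fell on knockdown. Centred on the median housekeeping change, 3 small subunit, 6 large subunit, 4 snoRNP and exosome and 3 RNA polymerase III genes fell on knockdown. The list medians ran from -0.10 to 0.05, and 29, 26, 13 and 3 genes fell under PLX4032. With this centring, 10.5% of all genes fell on knockdown and 12.2% under the drug. The knockdown counts and the RNA polymerase III count under the drug are thus near or below the share of all genes.

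The ribosomal proteins themselves were counted next. Of 58 measured cytosolic ribosomal protein genes 16 fell and 0 rose under PLX4032 in scrambled cells, with a median of -0.20, and 2 fell and 0 rose on knockdown, with a median of -0.07. RPS24 (-0.82 ± 0.0867, limma adjusted p = 2.84e-05), RPL17 (-0.65) and RPS7 (-0.59) fell most under the drug, and RPL17 (-0.37) and RPL35 (-0.25) on knockdown. Without scrambled PLX4032 replicate B, 5 fell under the drug. Centred on the median housekeeping change, 6 fell under the drug, where 12.2% of all genes fell. On knockdown 0 then fell and 8 rose, with a median of 0.10. Among all genes, 6395 rose and 1934 fell there, and the median was 0.187, above that of the ribosomal protein genes. Of 23 translation factor genes 13 fell and 0 rose under PLX4032, with a median of -0.29, led by EIF4EBP1 (-0.90), EIF2B3 (-0.71) and EIF3B (-0.57). On knockdown 5 fell, near the share of all genes (1 without knockdown DMSO replicate B), EIF2B3 (-0.43) and EIF4A3 (-0.37) by most, while EIF4EBP1, an inhibitor of cap-dependent translation, rose by 0.42. Of 25 genes of nucleotide and polyamine synthesis, which supply the building blocks of RNA, 20 fell and 1 rose under PLX4032, with a median of -0.62. CTPS1 (-1.25), MTHFD2 (-1.23) and AMD1 (-1.21) led them, and on knockdown 21 fell (13 without knockdown DMSO replicate B), SHMT1 (-0.82), DHODH (-0.79) and SMS (-0.77) by most.

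**Figure D4:**
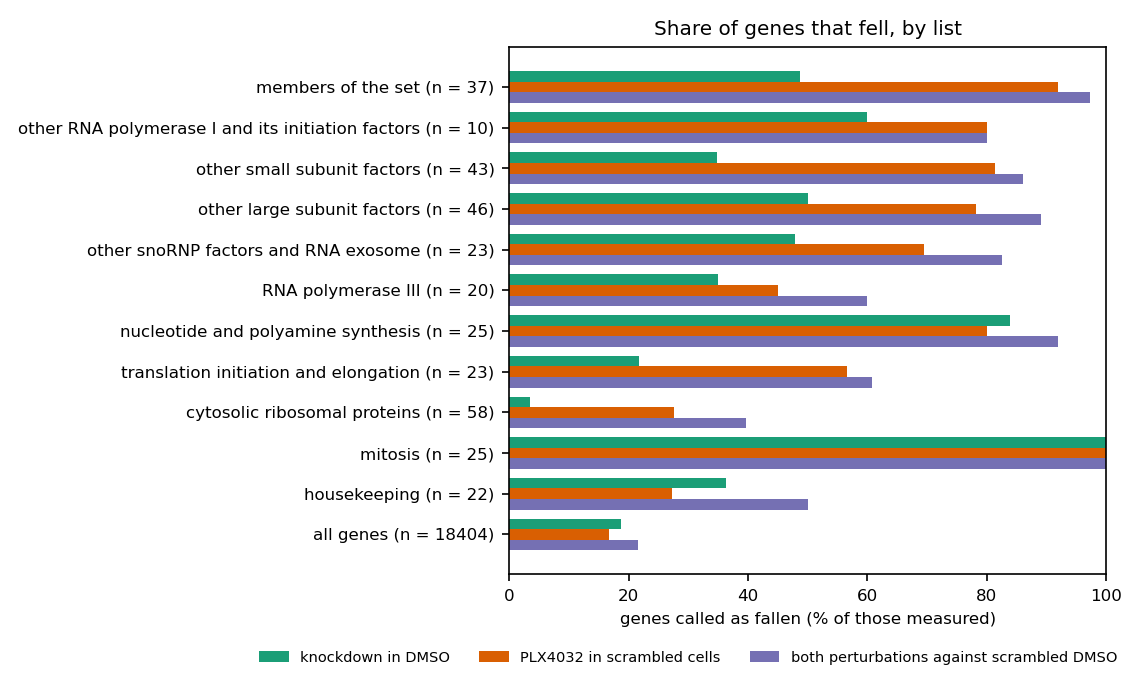
Share of measured genes called as fallen (horizontal axis, % of n) in each list, in 3 contrasts, with all 18404 genes at the bottom. Bars of the member set under PLX4032 stand for 34 of 37 genes and those of cytosolic ribosomal proteins for 16 of 58, against 16.8% of all genes.

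The partners and antagonists of MYC were measured too. MAX, its obligate partner, read between 8.55 and 8.68 on the 8 arrays and was not called in any contrast (changes from -0.05 to 0.11). MXD4, a repressor that competes with MYC for MAX, read 6.73 and 6.57 in scrambled DMSO cells, 8.01 and 7.85 in scrambled PLX4032 cells, 7.36 and 7.43 in knockdown DMSO cells, and 8.12 and 7.96 in knockdown PLX4032 cells. It rose by 1.28 ± 0.097 under PLX4032 in scrambled cells (2.43-fold, limma adjusted p = 2.48e-06) and by 0.74 ± 0.097 on knockdown in DMSO (adjusted p = 0.000167), with an interaction of -0.63 ± 0.137 (adjusted p = 0.0124). The MXD4 call in the interaction ended without knockdown DMSO replicate B. The MXD4 relatives MXD1 (0.68), MXI1 (0.60) and MNT (0.30) rose under PLX4032 as well. On knockdown MXD1 (0.51) and MNT (0.29) rose, MXI1 fell by 0.34, and MLXIP, of the related MLX network, fell by 0.88 ± 0.0873 (adjusted p = 2.39e-05). MLXIP then rose by 0.70 under PLX4032 in knockdown cells, against 0.07 in scrambled cells, an interaction of 0.63 ± 0.123 (adjusted p = 0.00672). SKP2, a ubiquitin ligase gene for MYC, fell by 0.44 under PLX4032 and by 0.65 on knockdown, and FBXW7, of another such ligase, was called in neither (0.09 and 0.04). MLX (-0.25 and -0.17), MGA (-0.08 and -0.28), MXD3 (-0.06 and 0.00), ZBTB17 (0.10 and -0.04) and the MYC paralogues MYCN (0.03 and 0.07) and MYCL (0.18 and 0.17) were called in neither of those contrasts.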

How the data were processed

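RNA of 8 samples was hybridised to 1 array each. The authors deposited a table of log2 intensities, made with RMA per the submitters' processing notes, which subtracts background, quantile-normalizes the arrays and summarises the probes of a set. Its version is not given in the sources, nor is the annotation. RMA makes the distributions of all arrays alike, so a change shared by most genes would be removed. Of 32321 probe sets 19158 carry 1 gene symbol in the platform annotation, 1388 several and 11775 none, and 19128 of the 19158 matched RefSeq (GRCh38.p14) by Entrez identifier. This left 18404 genes, of which 637 had several probe sets. No detection calls were used, and signal over background is unknown. Probes of close relatives, such as ribosomal protein pseudogenes, can share signal.

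Group means were fitted in R 4.3.3 with limma 3.58.1 (lmFit, then eBayes), with 4 residual and 6.73 prior degrees of freedom, and 7 contrasts tested two-sided, after a run on simulated data. Arrays were also centred on the median level of 22 housekeeping genes and, chosen after the data were seen, on the median of their changes. Members and lists were chosen with earlier results of these data known, and no list was tested as a set. Array values are given for MYC, the 3 members of each role with the largest change under PLX4032 in scrambled cells, and members called against their role's direction or in the interaction. Other values were added after they were seen. In each list up to 3 genes per single perturbation are named, besides all MYC partners. Promoter windows came from RefSeq.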

Additional observations from a re-analysis of the deposited data

Results flagged for a closer look

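For 4 genes among the members and the MYC network, the PLX4032 change differed between knockdown and scrambled cells in the test of that difference. MYC fell by 0.79 in scrambled cells and by 1.76 in knockdown cells, and its difference was -0.96 ± 0.138 (limma adjusted p = 0.00103). It kept its call in each alternative tried, and ran from -1.08 to -0.84 when 1 array was left out. RRP12 fell by 0.76 and by 1.36, a difference of -0.60 ± 0.112 (limma adjusted p = 0.00512). MXD4 rose by 1.28 and by 0.65, a difference of -0.63 ± 0.137 (limma adjusted p = 0.0124), and its levels in the PLX4032 groups overlap, at 8.01 and 7.85 against 8.12 and 7.96. The call of the MXD4 difference ended without knockdown DMSO replicate B. MLXIP changed by 0.07 in scrambled cells and rose by 0.70 in knockdown cells, a difference of 0.63 ± 0.123 (limma adjusted p = 0.00672). In DMSO it stood lower in knockdown cells, at 9.09 and 9.00, than in scrambled cells, at 9.95 and 9.90. No cause of these differences was tested.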

How the results depend on the processing

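Counts and medians of the members kept their direction under the alternatives, with the exceptions given here. Beside the fit reported, calls over all genes were counted only for the alternatives that normalized or centred the arrays again. With a fold of at least 1.5 asked for as well, 3 members were called on knockdown in DMSO, 5 on knockdown in PLX4032 and 10 in PLX4032 against knockdown. The interaction count was 7 without the dimmest 40% of genes and 5 with an intensity trend and robust prior. It was 6 under repeated quantile normalization, where 1234 of all genes were called above 0 and 1147 below. With arrays centred on the level of housekeeping genes it was 7, where 3442 were above and 491 below. These last 2 counts are near the share of all genes. Centring on the housekeeping level turned the median interaction to 0.078. It moved the median change to -0.359 on knockdown in DMSO, -0.781 under PLX4032 in scrambled cells, -0.641 under PLX4032 in knockdown cells and -0.245 on knockdown in PLX4032. It also moved the median of all genes, from 0.039 to 0.165 under PLX4032 in knockdown cells, and from 0.001 to 0.202 in the interaction. A centring on the median change of the same genes, chosen after the data were seen, gave 9 members called on knockdown in DMSO and 7 in the interaction. Its medians were -0.084 on knockdown in DMSO, -0.584 under PLX4032 in scrambled cells, -0.278 on knockdown in PLX4032, -0.889 for both perturbations, -0.231 for the interaction and -0.467 for PLX4032 against knockdown, and MYC on knockdown in DMSO was -0.23. It moved the median of all genes to 0.187 on knockdown in DMSO, 0.173 under PLX4032 in scrambled cells and 0.263 for both. Repeated quantile normalization gave medians of -0.186 for knockdown in DMSO and -0.663 for PLX4032 in scrambled cells.

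Leaving out 1 array at a time gave 8 to 18 members called on knockdown in DMSO, 17 to 27 on knockdown in PLX4032 and 2 to 4 in the interaction. The medians ran from -0.291 to -0.218 on knockdown in DMSO, -0.765 to -0.637 under PLX4032 in scrambled cells, -0.39 to -0.327 on knockdown in PLX4032, -1.149 to -1.025 for both perturbations, -0.192 to 0.004 for the interaction and -0.471 to -0.405 for PLX4032 against knockdown. The MYC change ran from -0.44 to -0.35 on knockdown in DMSO and from -0.52 to -0.28 for PLX4032 against knockdown. The causes were not tested. CACGTG stood in 8.11% of the member windows when only upstream bases were read and 67.6% held any of the 4 forms. Changes of sign, 84 over all members, contrasts and settings, were found for 0 of the changes called in the fit reported.

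The labels do not say that A and B pair samples. Correlations of same-letter deviations ran from -0.094 to 0.329, and with the replicate block 17 members were called on knockdown in DMSO, 34 under PLX4032 in scrambled cells, 25 on knockdown in PLX4032 and 2 in the interaction. With 2 arrays per group, small changes can be missed, and changes of dim genes are compressed.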
